A study of Mus musculus with 18 samples.

Results

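Srrm4 and 9 further regulators of alternative splicing that act in the heart (Srrm2, Rbm20, Rbm24, Rbfox1, Rbfox2, Mbnl1, Mbnl2, Celf1 and Celf2) were followed across 18 mouse hearts. The genes were taken by name from the gene tables, and all 10 were found among the 23457 genes of the count table. Srrm4 was chosen by its difference between PLCβ1b and blank hearts in these same data, and the other 9 by their known role in cardiac splicing. The hearts came from male C57BL/6 mice injected through the tail vein at 8 weeks of age with a recombinant adeno-associated virus of serotype 6 (rAAV6), and were taken 9 weeks later, at 17 weeks of age. Each group had 6 hearts, and each heart is named by the number in its label. The labels do not say what the number stands for. It runs from 26 to 36 in the blank group and from 4 to 21 in the other groups. rAAV6-blank carries a promoter without a protein product, rAAV6-PLCb1a carries the phospholipase splice variant PLCβ1a, which is inactive in heart, and rAAV6-PLCb1b carries PLCβ1b, which depresses contractility without hypertrophy at this age. The virus was carried by all 3 groups, no uninjected heart was analysed here, and the promoter of the vectors is not given in the sources used here. The labels name both ventricles as the tissue, whereas the study's methods name the left ventricle.

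Alternative splicing joins the exons of a transcript in different combinations, and regulators bound to the RNA set which exons are kept. Srrm4 is an SR-related protein known from neurons, where it promotes the inclusion of microexons, exons of only a few codons. Srrm2 is a scaffold of nuclear speckles, where splicing factors gather. Rbm20 represses exons of titin, and mutations in it cause dilated cardiomyopathy. Rbm24 promotes muscle exons and is needed for the sarcomere. The Rbfox, Mbnl and Celf families set the switch from fetal to adult exons as the heart matures, with Mbnl and Celf proteins often acting in opposite directions on the same exons.

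In the mm10 annotation deposited with the counts, Srrm4 lies on the minus strand at chr5:116439273-116591817, with 1 transcript of 13 exon blocks and 7475 exon bases. Only 1 of the 10 regulators, Srrm4 itself, has a coding microexon (3 to 27 bases) in that annotation. It is shown here with the microexons of Cacna1c and Tnnt2, which are among the splicing targets described further on. These exons were selected by length and coding status, and whether Srrm4 acts on them was not tested. Such exons of the targets Bin1, Ldb3, Lmo7, Mef2a, Pdlim5, Ryr2, Trdn and Ttn are not shown. The letters are from GENCODE transcripts of the same build, 5′ to 3′ on the coding strand, all in lower case because no motif is marked.
Srrm4, 27 bases, chr5:116472507-116472533, minus strand: gtctttctccaagaaaaggagacacag
Cacna1c, 27 bases, chr6:118705543-118705569, minus strand: ccatcggatctccaaatccaaattcag
Tnnt2, 11 bases, chr1:135841901-135841911, plus strand: ggaacaggaag
Tnnt2, 12 bases, chr1:135842015-135842026, plus strand: aagctgtggaag
The microexons of Srrm4 and Cacna1c are in every annotated transcript of their gene (1 of 1 and 10 of 10), whereas those of Tnnt2 are in 5 and 2 of its 9 transcripts. The deposited tables count reads per gene, so the use of these exons was not measured. None of the 10 regulators shares exon bases with another gene on its own strand. Exons of 2410137F16Rik overlap those of Srrm4 on the opposite strand, and exons of Tceb2 overlap those of Srrm2. Reads were counted by strand.

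Total counts per heart ran from 13246339 to 24155465, of which 3908354 to 7591558 came from nuclear genes, and 12281 genes had enough counts to be tested. Plcb1, the gene that both PLC vectors carry, separated PLC hearts from blank hearts. It had 0.806 to 1.14 FPKM (fragments scaled by exon length and by library size) in blank hearts, 3.18 to 5.28 in PLCβ1a and 4.16 to 13.2 in PLCβ1b hearts. The PLC groups overlapped in it, so it did not check the labels that tell PLCβ1a from PLCβ1b hearts. Cardiomyocyte markers (10 of 10 tested) summed to between 25900 and 28000 CPM (counts scaled to the same library size in every heart) in every heart. Skeletal muscle markers summed to 16.1 CPM in PLCβ1a heart 21 and to at most 0.604 CPM in the other 17 hearts. Leaving out that heart changed no call of the 10 regulators.

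Srrm4 was the regulator that differed most between the groups. It had 0.483 to 0.691 FPKM (median 0.621) in blank hearts, 0.564 to 0.701 (median 0.635) in PLCβ1a hearts and 0.715 to 1.02 (median 0.786) in PLCβ1b hearts. All 6 PLCβ1b hearts lay above all 12 other hearts, while blank and PLCβ1a hearts overlapped. The means were 0.604 ± 0.0747 FPKM in blank hearts, 0.629 ± 0.0485 in PLCβ1a and 0.815 ± 0.113 in PLCβ1b hearts (SD, n = 6 each). The highest value, 1.02 FPKM, was that of PLCβ1b heart 8, and the lowest, 0.483 FPKM, that of blank heart 32. On the scale of counts, Srrm4 was 1.37-fold higher in PLCβ1b than in blank hearts, a log2 fold change of 0.45 (SE 0.0973). This difference chose the gene and is given as a description without a test. The false discovery rate (FDR) behind the choice was 0.0596, the last gene called at an FDR below 0.1 being Lmo2 at 0.0998 and the first not called Rtn4r at 0.115.

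The values of PLCβ1a hearts did not enter that fold change, but the model of all 3 groups took its estimate of the spread from them too, and with only the blank and PLCβ1b hearts in the fit the FDR of Srrm4 was 0.102 and it was not called. Each comparison with PLCβ1a hearts also shares hearts with the one that chose the gene. Between PLCβ1a and blank hearts the log2 fold change of Srrm4 was 0.074 (SE 0.102), with a 95% interval from -0.13 to 0.27 and an FDR of 0.884 by edgeR's quasi-likelihood test with Benjamini-Hochberg adjustment. Between PLCβ1b and PLCβ1a hearts it was 0.38 (SE 0.0958), a 1.30-fold difference in which the hearts did not overlap. That difference did not pass the threshold either, with an FDR of 0.801 by the same test. No gene passed in that comparison. Both comparisons of PLCβ1b hearts share the same 6 PLCβ1b hearts.

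Few reads stood behind these levels. Srrm4 had 42 to 87 counts per heart in blank hearts, 51 to 98 in PLCβ1a and 75 to 130 in PLCβ1b hearts. Counting error alone corresponded to 12.4%, 11.7% and 10.2% of the level in these groups, and the spread between hearts (coefficient of variation of CPM) was 11.3%, 5.87% and 12.6%. For the other 9 regulators counting error was 1.89 to 5.24%. The call of Srrm4 was lost, with a count of 0 regulators, without any of blank hearts 30, 32, 34 and 36 or PLCβ1b hearts 4, 8, 10 and 17, when its FDR rose to at most 0.175. Its log2 fold change then stayed between 0.38 and 0.48.

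Within the PLCβ1b group the heart with the most Srrm4 was not the heart with the most transgene. PLCβ1b heart 8, with the highest Srrm4, had the lowest Plcb1 of its group (4.16 FPKM). PLCβ1b heart 4, with the highest Plcb1 (13.2 FPKM), had 0.849 FPKM of Srrm4, the next highest after heart 8. In PLCβ1b hearts 16, 17, 10 and 6, Plcb1 was 5.64, 7.05, 8.59 and 11.1 FPKM. Their Srrm4 was 0.715, 0.733, 0.812 and 0.761 FPKM in the same order. This mismatch of Srrm4 with Plcb1 inside the PLCβ1b group thus rests on heart 8, whereas all 6 PLCβ1b hearts lay above the blank hearts in Srrm4. A relation of Srrm4 to the amount of transgene was not tested. Of 14 neuron markers 3 had enough counts to be tested, Uchl1 (15 to 40 counts per heart), Stmn2 (12 to 35) and Dbh (11 to 32), the last an enzyme of sympathetic neurons. All 14 summed to 3.67 to 5.71 CPM in blank hearts, 3.26 to 4.67 in PLCβ1a and 3.65 to 5.54 in PLCβ1b hearts, and the groups overlapped. Dbh, Stmn2 and Uchl1 were thus counted in every heart, while Snap25, Th and Chat, also on the list, were at 0 in every heart. The log2 fold changes of the 3 tested markers in PLCβ1b against blank hearts were 0.16 (Dbh, SE 0.219), -0.14 (Stmn2, SE 0.204) and -0.15 (Uchl1, SE 0.164), and none passed the threshold. All 3 neuron markers were higher in PLCβ1b than in PLCβ1a hearts (0.0032 to 0.27), and none passed the threshold there either. All 7 glia markers, of which 3 were tested, summed to 5.98 to 8.87, 5.16 to 6.93 and 5.55 to 7.75 CPM in blank, PLCβ1a and PLCβ1b hearts. Of the 3 tested, 2 were higher and 1 lower in PLCβ1b than in blank hearts (log2 fold changes -0.14 to 0.28). All 3 glia markers were higher in PLCβ1b than in PLCβ1a hearts (0.12 to 0.40), and none passed the threshold in either comparison. Between the PLC groups 1 of the 3 had an unadjusted p below 0.05 by edgeR's quasi-likelihood test, against 4.42% of all genes. In whole ventricle, more cells that express Srrm4 and more Srrm4 RNA per cell cannot be told apart.

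**Figure D1:**
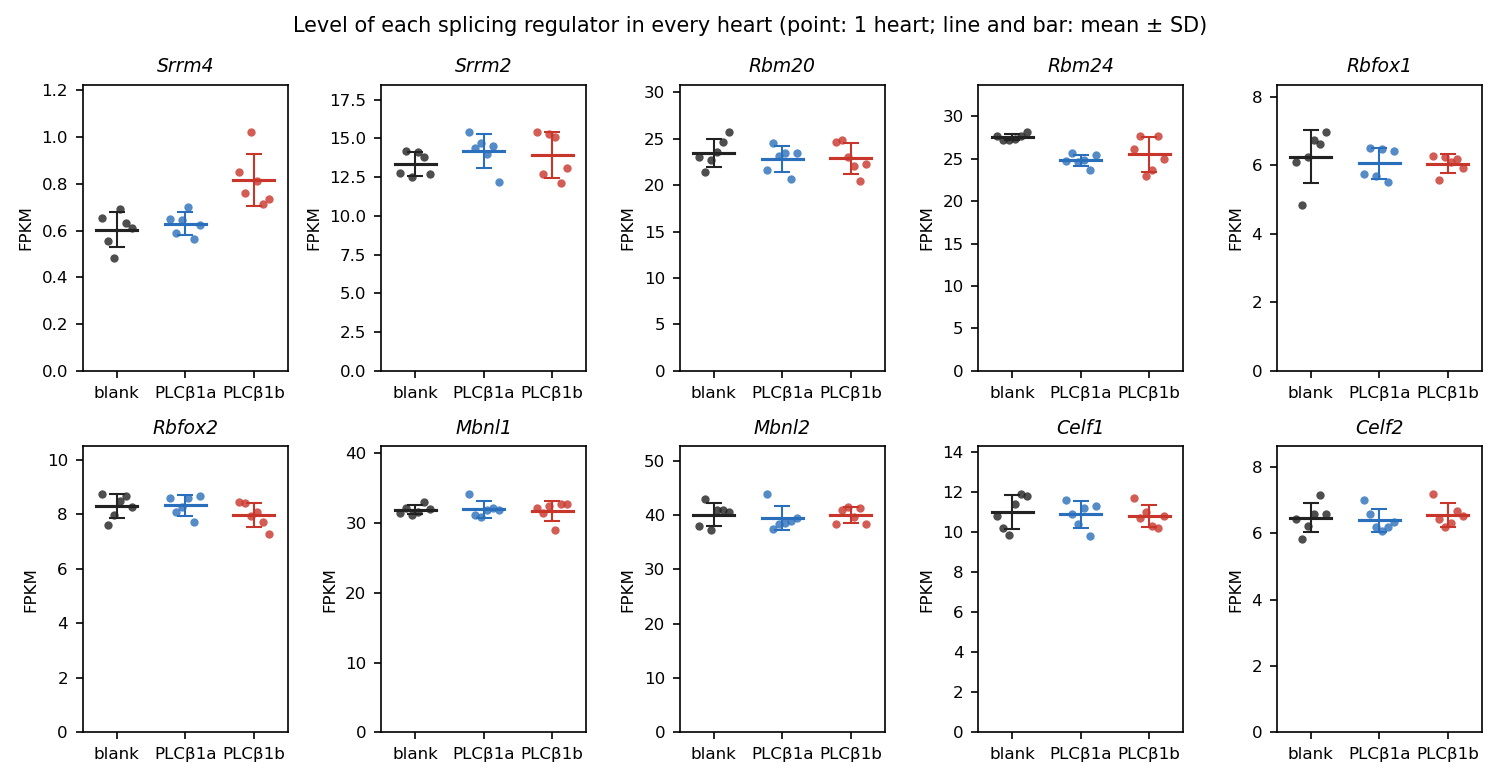
FPKM (vertical axes, from 0) of each of the 10 splicing regulators in blank, PLCβ1a and PLCβ1b hearts, with 1 point per heart and lines and bars for the mean ± SD of 6 hearts. Only in the Srrm4 panel do all PLCβ1b hearts (0.715 to 1.02 FPKM) lie above all blank hearts (0.483 to 0.691 FPKM), and in the Rbm24 panel all PLCβ1a hearts (23.7 to 25.6 FPKM) lie below all blank hearts (27.2 to 28.1 FPKM). In CPM, the PLCβ1a and blank hearts overlapped in Rbm24.

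Srrm2, the speckle scaffold related to Srrm4, had 12.5 to 14.2 FPKM (median 13.3) in blank, 12.2 to 15.4 (median 14.5) in PLCβ1a and 12.1 to 15.4 (median 14.1) in PLCβ1b hearts. Its groups overlapped. The log2 fold change of its counts against blank was 0.081 (SE 0.0619) in PLCβ1b and 0.11 (SE 0.0619) in PLCβ1a hearts, with FDRs of 0.819 and 0.664 by edgeR's quasi-likelihood test. The FPKM of Srrm2 was 22.4 ± 2.74 times that of Srrm4 in blank, 22.7 ± 2.45 times in PLCβ1a and 17.2 ± 1.32 times in PLCβ1b hearts (SD, n = 6). The lower ratio in PLCβ1b hearts follows from the values that chose Srrm4.

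Rbm24, the muscle exon activator, ran from 27.2 to 28.1 FPKM (median 27.4) in blank hearts, from 23.7 to 25.6 (median 24.8) in PLCβ1a hearts and from 22.9 to 27.7 (median 25.5) in PLCβ1b hearts. On the FPKM scale all 6 PLCβ1a hearts and 4 of 6 PLCβ1b hearts were below every blank heart. On the CPM scale these numbers were 5 of 6 and 3 of 6. The share of all genes without overlap was counted in CPM only, where Rbm24 did overlap. FPKM lay slightly lower in both PLC groups for genes in general. With limma on log2(FPKM + 0.1), the median log2 fold change of all genes was -0.0206 in PLCβ1a and -0.0185 in PLCβ1b hearts against blank. The log2 fold change of the counts was -0.13 (SE 0.0469) in PLCβ1a and -0.09 (SE 0.0468) in PLCβ1b hearts against blank. Neither passed the threshold, with FDRs of 0.390 and 0.701 by edgeR's quasi-likelihood test, and the unadjusted p of the first was 0.0109. Between PLCβ1b and PLCβ1a hearts the difference was 0.036 (SE 0.0469, FDR 1.0).

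Rbm20, the titin splicing repressor, had 21.4 to 25.7 FPKM (median 23.3) in blank, 20.7 to 24.5 (median 23.3) in PLCβ1a and 20.5 to 24.9 (median 22.7) in PLCβ1b hearts. The groups overlapped over most of their range. Its log2 fold change against blank was -0.021 (SE 0.0417) in PLCβ1b and -0.017 (SE 0.0417) in PLCβ1a hearts, and the 95% intervals, from -0.10 to 0.061 and from -0.098 to 0.065, bound the differences. Rbm24 was 1.17 ± 0.0644 times Rbm20 in FPKM in blank, 1.09 ± 0.045 times in PLCβ1a and 1.12 ± 0.124 times in PLCβ1b hearts (SD, n = 6).

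Both Rbfox genes were expressed. Rbfox2, which is active in many tissues, had 7.62 to 8.76 FPKM (median 8.38) in blank, 7.72 to 8.66 (median 8.45) in PLCβ1a and 7.30 to 8.47 (median 8.02) in PLCβ1b hearts. Rbfox1, its relative of muscle and brain, had 4.83 to 6.96 FPKM (median 6.43), 5.50 to 6.50 (median 6.07) and 5.56 to 6.27 (median 6.13) in the same order. All groups of both genes overlapped. The log2 fold changes in PLCβ1b against blank hearts were -0.04 (SE 0.0412) for Rbfox2 and -0.02 (SE 0.0611) for Rbfox1. The ratio of Rbfox2 to Rbfox1 in FPKM was 1.34 ± 0.141 in blank hearts, 1.38 ± 0.0931 in PLCβ1a and 1.33 ± 0.103 in PLCβ1b hearts (SD, n = 6).

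Muscleblind proteins keep adult exons in the mature heart and are the factors trapped by the expanded repeats of myotonic dystrophy. Mbnl2 had the highest level of the 10 genes, with 37.2 to 42.9 FPKM (median 40.8) in blank, 37.4 to 43.9 (median 38.7) in PLCβ1a and 38.3 to 41.4 (median 40.3) in PLCβ1b hearts. Mbnl1 had 31.1 to 33 FPKM (median 31.8), 30.8 to 34.2 (median 31.8) and 29.0 to 32.7 (median 32.2). The groups of both overlapped. Their log2 fold changes in PLCβ1b against blank hearts were 0.015 (SE 0.044) for Mbnl2 and 0.0061 (SE 0.041) for Mbnl1, and the 95% intervals reached from -0.071 to 0.10 and from -0.074 to 0.087. Limma on log2 FPKM turned the sign of both, to -0.002 and -0.0074 with 0.1 added. The median of all genes in that fit was -0.0185, against -0.0009 in the fit to the counts. The ratio of Mbnl2 to Mbnl1 in FPKM was 1.26 ± 0.055, 1.23 ± 0.0307 and 1.26 ± 0.0724 in blank, PLCβ1a and PLCβ1b hearts (SD, n = 6).

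Celf proteins are high in the fetal heart and fall after birth. Celf1 had 9.84 to 11.9 FPKM (median 11.1) in blank, 9.80 to 11.6 (median 11) in PLCβ1a and 10.2 to 11.7 (median 10.8) in PLCβ1b hearts. Celf2 had 5.84 to 7.14 FPKM (median 6.51), 6.06 to 7.01 (median 6.26) and 6.20 to 7.19 (median 6.47). Again the groups overlapped. In PLCβ1b against blank hearts the log2 fold changes were 0.019 (SE 0.0389) for Celf1, with a sign that limma on log2 FPKM turned (-0.022), and 0.021 (SE 0.0436) for Celf2. Celf1 was 1.70 ± 0.0739 times Celf2 in FPKM in blank, 1.70 ± 0.0954 times in PLCβ1a and 1.65 ± 0.0791 times in PLCβ1b hearts (SD, n = 6).

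Counts of calls set these genes against the whole table. Between PLCβ1b and blank hearts 1 of the 10 regulators was called, Srrm4, where 0.0977% of all genes were. Since that comparison chose Srrm4, nothing is read from this count. Of the other 9, none was called and none had an unadjusted p below 0.05 by edgeR's quasi-likelihood test, against 7.41% of all genes, and none had groups without overlap in CPM, against 0.48% of all genes. Their FDRs were 0.701 to 0.985. DESeq2 and edgeR's exact test called none of the 9 either. Their 95% intervals lay between -0.18 and 0.20 on the log2 scale, so changes of Rbm24 to below 0.882-fold or of Srrm2 to above 1.15-fold, the outermost bounds, were outside the intervals.

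Between PLCβ1a and blank hearts none of the 10 was called by edgeR's quasi-likelihood test, against 0.138% of all genes, and none by DESeq2 or edgeR's exact test. At an unadjusted p below 0.05 there was 1 regulator, Rbm24, against 8.58% of all genes, and none had groups without overlap in CPM, against 0.594% of all genes. The intervals of the 9 regulators other than Srrm4 lay between -0.22 and 0.23. Between PLCβ1b and PLCβ1a hearts none was called by any of these tools, where edgeR's quasi-likelihood test called 0% of all genes, DESeq2 called 1 gene and edgeR's exact test 2. Srrm4 was the 1 regulator with an unadjusted p below 0.05, against 4.42% of all genes, and the 1 without overlap in CPM, against 0.179%. Both values rest on the PLCβ1b hearts that chose it. The other 9 regulators had FDRs of 1.0 there, and their intervals lay between -0.15 and 0.13. The comparisons share the blank or the PLCβ1b hearts.

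**Figure D2:**
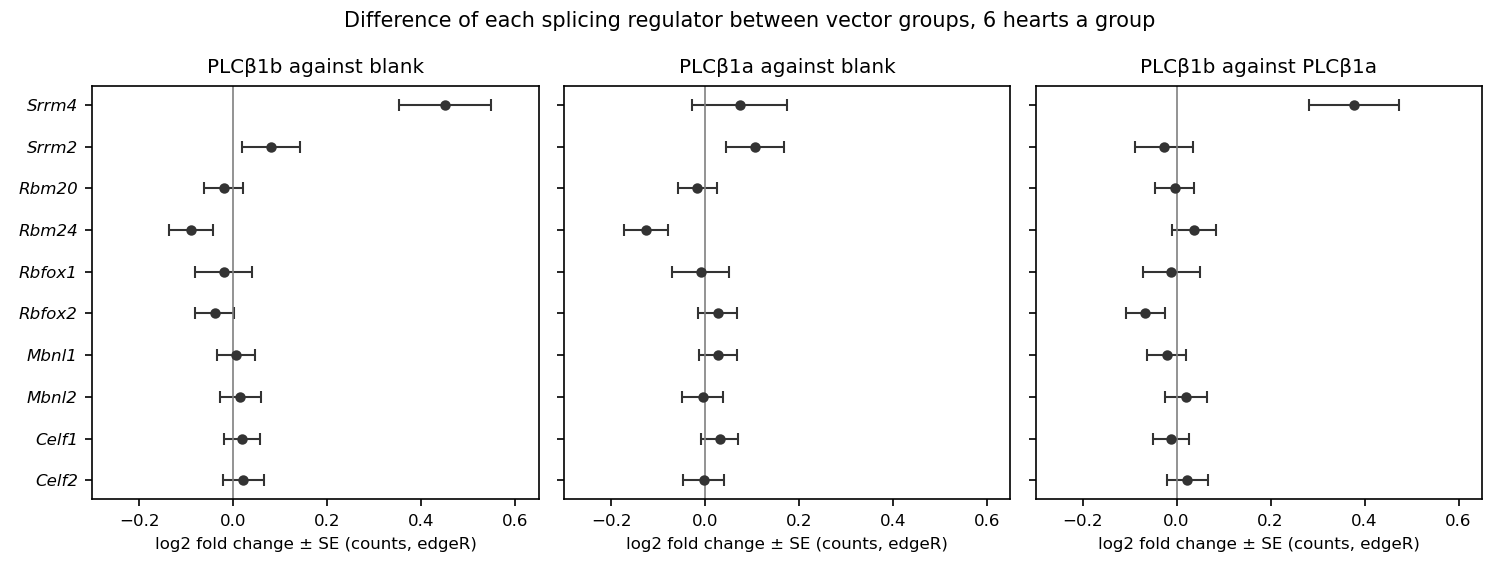
The log2 fold change (horizontal axes, points with bars of 1 SE from edgeR's fit to the counts) of each splicing regulator in the 3 comparisons of vector groups, with 6 hearts a group. Srrm4 stands at 0.45 and 0.38 in the comparisons of PLCβ1b hearts and at 0.074 between PLCβ1a and blank hearts, and the other 9 regulators lie between -0.13 and 0.11 in all 3.

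**Figure D3:**
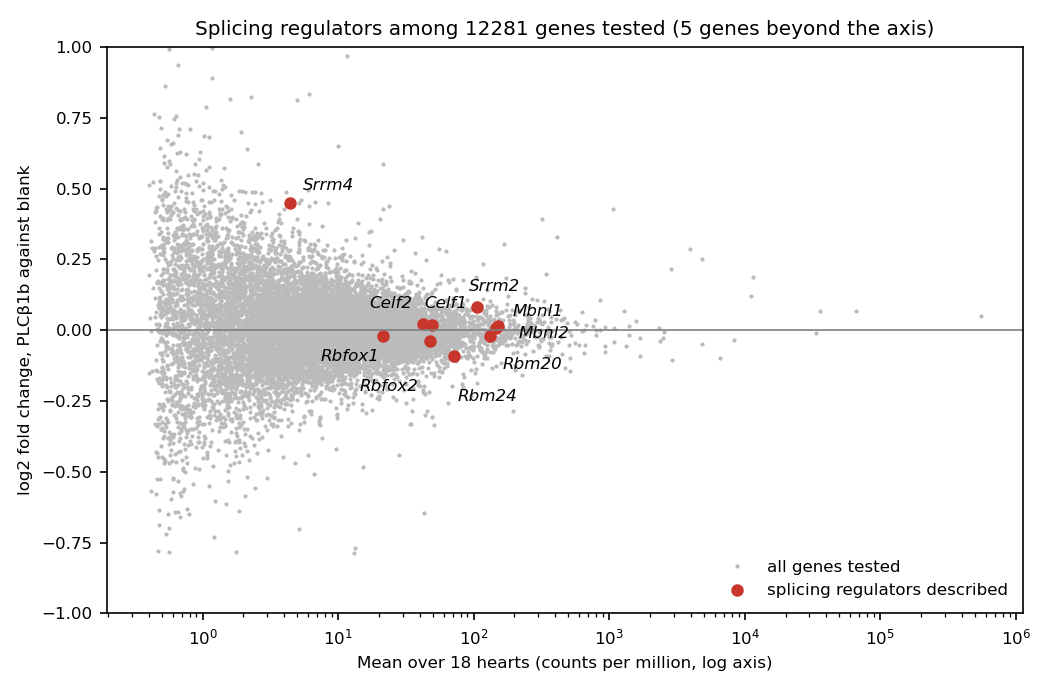
The log2 fold change between PLCβ1b and blank hearts (vertical axis) against the mean CPM over 18 hearts (log axis) for 12281 genes tested, of which 5 lie beyond the vertical axis. Red points mark the 10 splicing regulators, with Srrm4 at 0.45 at the low end of their range and the others between -0.09 and 0.081.

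The levels of the 10 genes in blank hearts spanned a wide range, compared per length in FPKM. The order of the means was Mbnl2 (40.1 FPKM), Mbnl1 (31.9), Rbm24 (27.5), Rbm20 (23.5), Srrm2 (13.3), Celf1 (11), Rbfox2 (8.30), Celf2 (6.47), Rbfox1 (6.25) and Srrm4 (0.604). The ranges over blank hearts of each pair of neighbours were apart except those of Celf2 and Rbfox1, where Celf2 was the higher in 13 of 18 hearts. Srrm4 was at the 13.4th percentile of the genes tested and Rbfox1, the next above it at 10.3 times its level, at the 72.3rd. Mbnl2 was at 66.4 times the level of Srrm4. Over all 18 hearts the highest FPKM was 2.12 times the lowest for Srrm4, 1.44 times for Rbfox1 and 1.18 to 1.27 times for the other 8. The biological coefficient of variation that edgeR estimated, which leaves counting error out, was 0.0469 for Srrm4 and 0.037 (Celf1) to 0.0749 (Srrm2) for the others, with a median of 0.0662 over all genes tested.

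**Figure D4:**
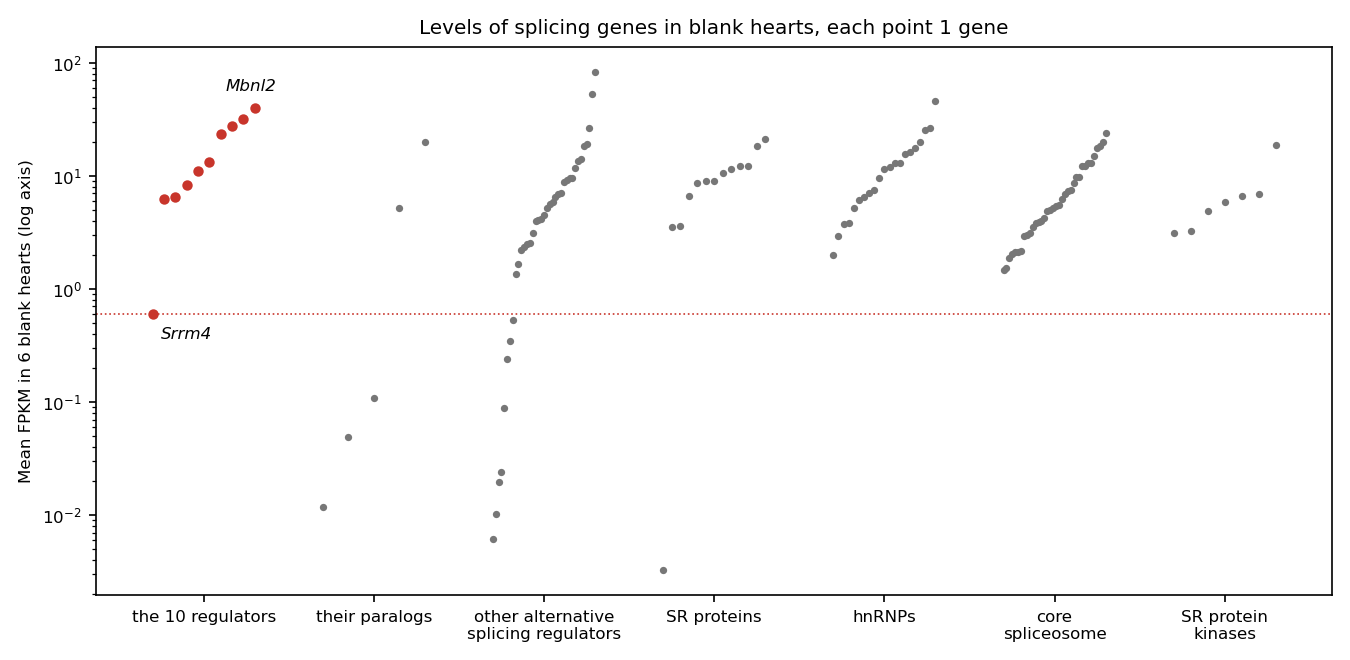
Mean FPKM in 6 blank hearts (log axis) of the 10 splicing regulators (red) and of genes in 6 further splicing lists (grey), each point 1 gene, with a dotted line at Srrm4 (0.604 FPKM). The 9 regulators other than Srrm4 lie between 6.25 and 40.1 FPKM, and 6 genes below 0.003 FPKM are not drawn.

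Relatives of the 10 regulators were mostly silent. Of the 9 paralogs, 3 had enough counts to be tested, and 7 had a lower mean FPKM in blank hearts than Srrm4. Srrm3, the closest relative of Srrm4 and also neuronal, had at most 1 count in any heart. Rbfox3, the neuronal Rbfox gene, had at most 2 counts, and Celf3, Celf5 and Celf6 had at most 1, 3 and 1. Celf4 had 0 to 9 counts. The 3 tested were Rbm38, a relative of Rbm24, at 19.8 FPKM in blank hearts, Srrm1, a splicing coactivator, at 5.22 FPKM, and Mbnl3 at 0.109 FPKM. Rbm38 had 16.9 ± 0.749 FPKM in PLCβ1a and 18.1 ± 1.60 in PLCβ1b hearts against 19.8 ± 1.96 in blank hearts (SD, n = 6). Its log2 fold changes of -0.20 (SE 0.0575) and -0.12 (SE 0.0572) did not pass the threshold, with FDRs of 0.256 and 0.669 by edgeR's quasi-likelihood test.

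Besides the 10 regulators, 125 further splicing genes were listed, of which 111 were tested. They comprised the paralogs and other alternative splicing regulators, SR proteins, hnRNPs, core spliceosome proteins and the kinases of SR proteins. None was called in any of the 3 comparisons by edgeR's quasi-likelihood test. At an unadjusted p below 0.05 there were 12 in PLCβ1b against blank (10.8%), 7 in PLCβ1a against blank (6.31%) and 9 in PLCβ1b against PLCβ1a (8.11%). Over all genes tested the shares were 7.41%, 8.58% and 4.42%. The median log2 fold changes of the 111 genes were -0.0059, 0.014 and -0.021, and those of all genes -0.0009, -0.0018 and 0.0009. DESeq2 called none of them, and edgeR's exact test called 1, Clk3 in PLCβ1a against blank hearts.

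Within the lists, the gene with the highest FPKM in blank hearts was Qk among the other alternative splicing regulators (83.0), Srsf2 among SR proteins (21.1), Hnrnpa2b1 among hnRNPs (46.3), Snrpb in the core spliceosome (23.9) and Clk1 among the kinases (18.7). Their log2 fold changes in PLCβ1b against blank hearts were -0.025 (SE 0.0415) for Qk, -0.039 (SE 0.0513) for Srsf2, -0.098 (SE 0.0425) for Hnrnpa2b1, -0.079 (SE 0.0843) for Snrpb and 0.094 (SE 0.0539) for Clk1. None passed the threshold.
In that comparison the lowest p in each direction were those of Srpk2 (0.18) and Hnrpdl (0.15), which were higher in log2 fold change, and Prpf4 (-0.20) and Snrnp27 (-0.20), which were lower, with FDRs of 0.348, 0.542, 0.492 and 0.521 by edgeR's quasi-likelihood test. Srpk2 phosphorylates SR proteins, and Prpf4 and Snrnp27 belong to the tri-snRNP.

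In PLCβ1a against blank hearts they were Clk3 (0.27) and Hnrpdl (0.14), Rbm38 (-0.20) and Snrnp27 (-0.21). Clk3, another kinase of SR proteins, had 3.27 ± 0.322 FPKM in blank hearts, 3.99 ± 0.254 in PLCβ1a and 3.53 ± 0.442 in PLCβ1b hearts (SD, n = 6). In CPM its 6 PLCβ1a hearts lay above all blank hearts, where 0.594% of all genes had groups without overlap. Clk3 was named for its low p, and nothing is read from its separation. Its FDR was 0.181 by edgeR's quasi-likelihood test and 0.0898 by edgeR's exact test, the lowest of its 10 alternatives (highest 0.427). In PLCβ1b against PLCβ1a hearts the lowest p in each direction were those of Snrpf (0.30), Hnrnpf (0.14), Hnrnpa2b1 (-0.13) and Fubp1 (-0.14), and none of these passed the threshold. Snrpf, a small core protein of the spliceosome, had 18 to 64 counts per heart.

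Genes whose splicing these regulators are known to set were examined for their level, since the tables give no isoforms. All 16 were tested. None was called between PLCβ1b and blank hearts by edgeR's quasi-likelihood test, and 1 (6.25%) had an unadjusted p below 0.05, against 7.41% of all genes. Between PLCβ1a and blank hearts 3 (18.8%) had an unadjusted p below 0.05, against 8.58% of all genes, and 1 was called, against 0.138% of all genes. This was Cacna1c, which encodes the pore of the cardiac L-type calcium channel. Cacna1c had 18.9 to 22.2 FPKM (median 20.6) in blank, 21.4 to 25.8 (median 23.9) in PLCβ1a and 21.1 to 25.3 (median 23.0) in PLCβ1b hearts. In CPM all 12 PLC hearts lay above all blank hearts, and in FPKM 4 of 6 in each PLC group did. Over all genes, 0.594% had no overlap in CPM between PLCβ1a and blank hearts, and 0.48% between PLCβ1b and blank hearts. Cacna1c was singled out by its call, and nothing is read from its separation. Its log2 fold change was 0.22 (SE 0.043, FDR 0.0386) in PLCβ1a and 0.18 (SE 0.043, FDR 0.115) in PLCβ1b hearts against blank by edgeR's quasi-likelihood test. Between PLCβ1b and PLCβ1a hearts it was -0.034 (SE 0.0428, FDR 1.0). Its call in PLCβ1a hearts was lost without blank heart 34 or PLCβ1a heart 11, with an FDR of at most 0.157, and with limma on log2 FPKM (FDR at most 0.427). In PLCβ1b hearts 3 of 10 alternatives called it (only the groups compared, DESeq2, and the fit without the filter on low counts), with FDRs from 0.0334 upwards.

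No target other than Cacna1c was called. Ttn, the giant spring of the sarcomere, had 450 ± 32.5 FPKM in blank hearts, 459 ± 10.9 in PLCβ1a and 442 ± 17.3 in PLCβ1b hearts (SD, n = 6), with log2 fold changes of 0.05 (SE 0.0352) and -0.011 (SE 0.0352) in the PLC groups. Those of Ryr2, the calcium release channel, were 0.05 and -0.026. Camk2d, a calcium-dependent kinase, had 0.024 and 0.043, Ldb3, a protein of the Z-disc, 0.015 and 0.023, and Trdn, a partner of the release channel, 0.01 and -0.055. Tnnt2, cardiac troponin T and a target of Mbnl and Celf proteins, had 0.066 and 0.034. Among the rest, Mef2d (0.16 and 0.10), Lmo7 (0.12 and 0.072), Pdlim3 (0.21 and 0.15) and Rest (0.097 and 0.13) were higher in value and Pdlim5 (-0.039 and -0.083) and Bin1 (-0.023 and -0.13) lower in both PLC groups. Mef2a had 0.036 and -0.058 and Fhod3 0.015 and 0.013, and none of these passed the threshold. Rest, the repressor of neuronal genes, had 2.53 ± 0.245 FPKM in blank hearts, 2.66 ± 0.353 in PLCβ1a and 2.75 ± 0.177 in PLCβ1b hearts (SD, n = 6).

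Genes with a coding microexon in the annotation numbered 875, of which 593 were tested. This list was drawn up after the data were seen and is given as a description. Their median log2 fold change was 0.018 in PLCβ1b and 0.019 in PLCβ1a against blank hearts, and 0.0002 between the PLC groups. Over all genes tested these medians were -0.0009, -0.0018 and 0.0009. Of the 593, 1 was called in PLCβ1b against blank hearts, where 0.0977% of all genes were, and this was Srrm4, the gene that the comparison chose. In PLCβ1a against blank hearts, where 0.138% of all genes were called, there were 2, Cacna1c and Eml5 (log2 fold change 0.47, FDR 0.0542 by edgeR's quasi-likelihood test).

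Across the 18 hearts, with group means subtracted from log2 CPM, the genes whose pattern was most like that of Srrm4 were Eif2ak2 (Pearson r 0.902), Lgals3bp (0.822), Fkbp15 (0.818), Mertk (0.799) and Rogdi (0.793). These are the highest of 12281 values, whose median was -0.0065, with 4.17% over 0.5. Without subtraction they were Mmab (0.823), Arid1b (0.811), Eif2ak2 (0.753), Pgap2 (0.742) and Foxk1 (0.739). Among the 45 pairs of the 10 regulators, with group means subtracted, the highest r was that of Mbnl1 with Mbnl2 (0.60) and the lowest that of Srrm4 with Rbm24 (-0.625). Plcb1 had an r of -0.249 with Srrm4 once group means were subtracted, and 0.653 without. Correlations without subtraction hold the group difference that chose Srrm4, and nothing is read from them. The values of a heart share its library and scaling, and these correlations are descriptions without a test. For Srrm4, counting error was 12.4%, 11.7% and 10.2% of the level in blank, PLCβ1a and PLCβ1b hearts. Its spread between hearts was 11.3%, 5.87% and 12.6%. With group means subtracted, the pattern of Srrm4 therefore cannot be told from counting error, and nothing is read from its correlations.

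**Figure D5:**
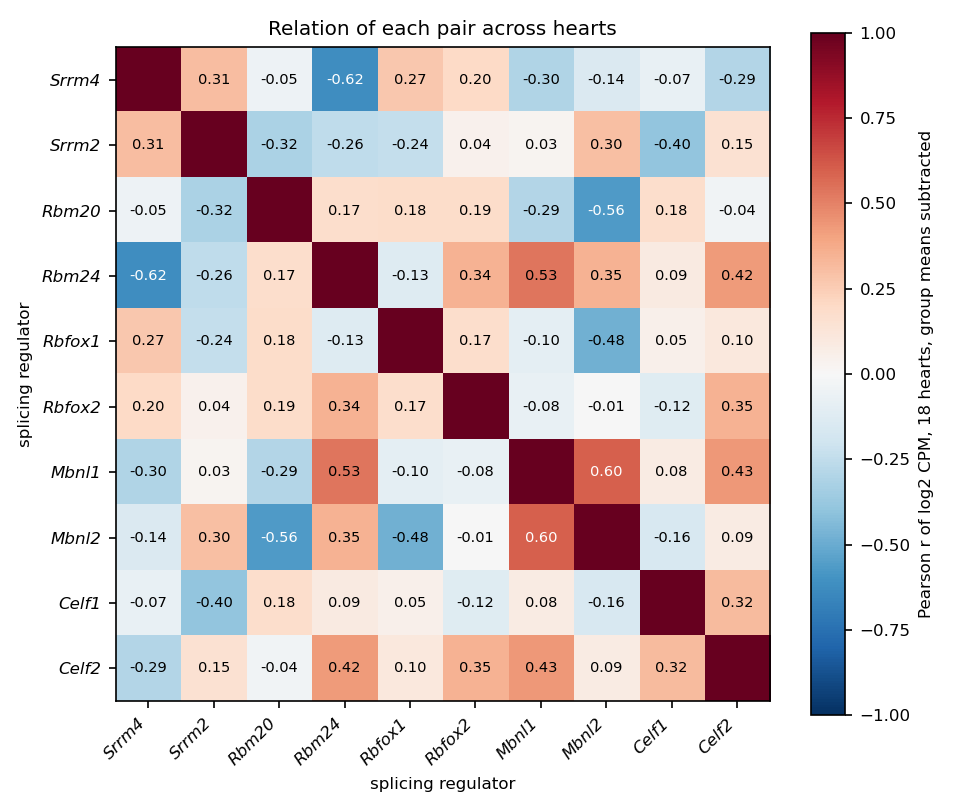
Pearson r of log2 CPM for each pair of the 10 splicing regulators over 18 hearts after the group means were subtracted (colour scale from -1 to 1, value in each cell). The strongest positive cell is Mbnl1 with Mbnl2 (0.60), and the strongest negative is Srrm4 with Rbm24 (-0.625). Counting error of Srrm4 was about as large as its spread between hearts.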

How the data were processed

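RNA of 18 hearts was depleted of ribosomal RNA, made into strand-specific libraries and sequenced in pairs. According to the submitters' processing notes and the study's methods, the authors aligned reads to mm10 with TopHat and used HTSeq (union mode) to count them per gene and strand. These counts were deposited without scaling, as whole numbers. The authors also deposited FPKM, scaled by gene length and depth, and the annotation, used here for gene models and microexons.

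The 10 regulators and the gene lists were chosen with earlier results of these data known. edgeR 4.0.16 (R 4.3.3) was used on TMM-scaled counts, in 1 model of the 3 groups with robust moderation, on 12281 genes kept by filterByExpr (minimum count 10, minimum total 15, smallest group 6). The quasi-likelihood F test was two-sided, with Benjamini-Hochberg adjustment over all genes tested and a call at an FDR below 0.1. The standard error is the size of the log2 fold change divided by the square root of F. Intervals are 95% from that standard error and the normal distribution, and can be slightly narrower than the F test would give. CPM follow TMM scaling, and log2 CPM add a prior count of 2. Scripts were tested on simulated data. Named genes are the 10 regulators, their paralogs, the splicing targets (16 tested, of which 1 is not reported here), the gene of highest mean FPKM in blank hearts of each other splicing list, the 2 genes of lowest p in each direction of each contrast, any called gene, and the 5 genes most like Srrm4 on each scale. Clk3, Eml5, Plcb1 and the threshold neighbours Lmo2 and Rtn4r were also named after their values were seen where the rule did not name them. Hnrpdl is the table's older symbol of Hnrnpdl.

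Alternatives were leaving out each heart, leaving out 37 mitochondrial genes, scaling by the upper quartile, testing without the filter, testing only genes that average 3 FPKM or more, fitting just the groups of a comparison, DESeq2 1.42.0, the exact test of edgeR, limma 3.58.1 on log2(FPKM + 0.1) or log2(FPKM + 1), and an FDR below 0.05. A fit without robust moderation was chosen after seeing the data. No heart was left out of the values reported, and intervals cover the spread between these hearts. Python 3.11.15 with pandas 2.3.3, numpy 2.4.6 and matplotlib 3.10.9 made the tables and figures.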

Additional observations from a re-analysis of the deposited data

Results flagged for a closer look

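Among 30 sets of 6 hearts (10 regulators in 3 groups), 2 had a heart whose distance from its neighbour, divided by the range of the group, exceeded Dixon's 95% critical value for 6 samples. Chance alone gives such a heart in about 1 of 20 sets. Mbnl1 had 29.0 FPKM in PLCβ1b heart 10, against 31.5 to 32.7 in the other PLCβ1b hearts (ratio 0.666). Mbnl2 had 43.9 FPKM in PLCβ1a heart 7, against 37.4 to 39.5 in the other PLCβ1a hearts (ratio 0.682). Neither regulator was called in any comparison with or without these hearts.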

How the results depend on the processing

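The count of regulators called between PLCβ1b and blank hearts, 1 in the values reported, fell to 0.0 with only genes of at least 3 FPKM, where Srrm4 was not in the table, with only the groups compared (FDR of Srrm4 0.102), with limma on log2(FPKM + 0.1) or log2(FPKM + 1) (FDR 0.445 and 0.413) and at an FDR below 0.05. With 1 heart left out in turn it was 0.0 to 1.0. Apart from the 3 FPKM limit and the stricter FDR, the cause was not tested. With 1 added, the log2 fold change of Srrm4 was 0.178, since adding a constant shrinks the change of a low gene. Mitochondrial genes left out, no filter on low counts, upper-quartile scaling, edgeR's exact test, DESeq2 and no robust moderation kept the call (log2 fold change 0.45). The count of other splicing genes called between PLCβ1a and blank hearts was 1.0 with edgeR's exact test in place of 0, and its cause was not tested. The other counts of regulators and splicing genes stayed at 0 under every alternative. Of 867 alternative and reported log2 fold changes of the regulators, 47 had another sign, all of them of differences near 0 that were not called. Limma with 0.1 and 1 added gave -0.0074 and -0.0072 for Mbnl1, -0.002 and -0.002 for Mbnl2 and -0.0223 and -0.0208 for Celf1 in PLCβ1b against blank, -0.0161 and -0.0149 for Celf1 in PLCβ1a against blank, and 0.0041 and 0.004 for Rbm20 in PLCβ1b against PLCβ1a. With 0.1 added Rbfox1 had 0.0003 in the last. The median of all genes with 0.1 and 1 added was -0.0185 and -0.0136 in PLCβ1b against blank hearts. In PLCβ1a against blank hearts it was -0.0206 and -0.0153. In the fit to the counts these medians were -0.0009 and -0.0018. With genes of at least 3 FPKM, Rbfox1 had 0.0009, Mbnl2 0.0057 and Celf2 0.0081 in PLCβ1a against blank. With each heart left out, the ranges that crossed 0 were, in PLCβ1b against blank, -0.0743 to 0.0111 (Rbfox1), -0.016 to 0.0238 (Mbnl1) and -0.0078 to 0.049 (Mbnl2). In PLCβ1a against blank they were -0.0392 to 0.0102 (Rbm20), -0.0631 to 0.0274 (Rbfox1), -0.0274 to 0.0293 (Mbnl2) and -0.0153 to 0.0173 (Celf2). In PLCβ1b against PLCβ1a they were -0.0735 to 0.0046 (Srrm2), -0.0307 to 0.0186 (Rbm20), -0.0481 to 0.0193 (Rbfox1), -0.0446 to 0.0069 (Mbnl1) and -0.0041 to 0.0473 (Mbnl2). No paired analysis was possible because the labels give no pairing of hearts between groups. At 42 to 130 counts per heart, depth limits Srrm4 most among the 10 regulators.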
